A study of Mus musculus with 4 samples.

Results

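The Tdpoz genes and their relatives Spop and Spopl encode proteins with a MATH domain and a BTB domain. The 7 genes described here (Tdpoz1, Tdpoz2, Tdpoz3, Tdpoz4, Tdpoz5, Spop and Spopl) were listed by name and looked up in the gene table and the isoform table of single mouse oocytes, blastomeres and embryonic stem cells. All 7 were among the 20171 genes of the gene table. They held 17 of the 68012 isoforms of the isoform table, where 6 of the 7 had an isoform and Tdpoz4 had none. Each cell was amplified on its own with the primers of a 10x gel bead, cells were then pooled, and full-length cDNA was read on the PacBio platform with cell barcodes and unique molecular identifiers (UMIs). The embryos came from C57BL/6J females mated with DBA/2NCrl males of 6 to 8 weeks (the strain label reads DBA/2J x C57BL/6J), superovulated with PMSG and hCG, with no other treatment. MII oocytes were taken from unmated females 20 h after hCG. Zygotes were collected at 22 to 24 h, early 2-cell (E2C) embryos at 30 to 32 h, late 2-cell (L2C) embryos at 46 to 48 h, 4-cell embryos at 54 to 56 h, 8-cell embryos at 68 to 70 h, 16-cell and 32-cell embryos at 78 to 80 h and early blastocysts at 88 to 90 h. Mouse embryonic stem cells (mESCs) came from a single cultured line.

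SPOP is the substrate-binding subunit of a ubiquitin ligase built on the scaffold CUL3. Its MATH domain holds the protein to be marked and its BTB domain binds CUL3, while the RING protein RBX1 brings in the ubiquitin-conjugating enzyme. SPOPL is its close paralogue and can form mixed complexes with it. The Tdpoz genes are a rodent expansion of the same TRAF/MATH and BTB layout, first described from cDNA of early embryos, and their substrates are little known.

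The replicates were 10 oocytes and 9 zygotes, 5 embryos at E2C and 6 at L2C, 5 at the 4-cell stage, and 4 each at the 8-cell and 16-cell stages, 43 in all with 121 cells. A level is the mean over an embryo's cells, in copies per 100,000 UMIs. Since each UMI stands for a molecule, levels compare genes as molecules with no division by length. The 22 32-cell, 13 blastocyst and 5 mESC cells name no embryo and are given over cells, with no test. A cell held 4985 to 389775 UMIs (median 38914), so that 1 UMI was worth about 0.511 copies in a median oocyte, 1.72 in a median L2C cell and 3.08 in a median 4-cell blastomere. None of the 161 listed barcodes occurred in more than 1 run. The oocyte and zygote markers summed to between 3139 and 4280 in oocytes and to at most 213 in L2C embryos. They did not keep falling after L2C. Their highest sums were 359 in 4-cell, 210 in 8-cell and 370 in 16-cell embryos. In single cells they were 52.9 at the 32-cell stage, 450 in blastocysts and 184 in mESCs. The markers of the 2-cell burst had medians of 48.7 in zygotes, 46.9 in E2C and 7.69 in L2C embryos. The trophectoderm markers reached 428 in a blastocyst cell with Cdx2 at 0 up to the 4-cell stage, and the markers of inner cell mass and mESCs were between 202 and 431 in mESCs. Cumulus cell markers stayed between 0 and 9.81 and sperm and spermatid markers between 0 and 4.89 in every stage. The L2C embryo numbered 1 stood apart. It was a single cell with 17971 UMIs, where 1 UMI is 5.56 copies, its inner cell mass markers summed to 66.8 against 11.7 to 19.9 in the other 5, and its correlation with the mean of the other L2C embryos across 11682 genes was 0.73 against 0.87 to 0.90. Without it, the log2 difference from E2C to L2C was 2.65 for Tdpoz5, 1.83 for Tdpoz4, 1.87 for Tdpoz1 and -1.13 for Spopl, all still called.

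Tdpoz1 to Tdpoz5 lay together on chromosome 3 (mm10; GENCODE M21): Tdpoz2 at chr3:93651542-93652686, Tdpoz1 at chr3:93669333-93676310 and Tdpoz5 at chr3:93960292-93961314 on the minus strand, and Tdpoz4 at chr3:93796398-93797510 and Tdpoz3 at chr3:93826020-93827117 on the plus strand. Within 250 kb of this span 8 other genes had isoforms. Of these, 6 were of the same layout (Gm37596, Gm9117, Gm9125, Gm10697, Gm10696 and Gm5286, of which RefSeq names 4 as Tdpoz9, Tdpoz7, Spopfm2 and Spopfm3 in the order Gm9125, Gm10697, Gm10696 and Gm5286). The other two were S100a10 and S100a11. Spop was on chromosome 11 (chr11:95414080-95493406, plus strand) and Spopl on chromosome 2 (chr2:23506220-23572106, minus strand).

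The predicted proteins, taken as the longest reading frame of each gene's annotated transcripts, had 365, 360, 365, 370 and 340 residues for Tdpoz1 to Tdpoz5, 374 for Spop and 392 for Spopl. Spop and Spopl were 79.6% identical in protein sequence. The Tdpoz proteins were 52.1% to 58.6% identical to Spop and 56.0% to 77.5% identical to each other, Tdpoz1 and Tdpoz3 being the closest pair. Tdpoz5 and Tdpoz1 had closer copies in the cluster. The coding sequence of Tdpoz5 was 100% identical to that of Gm10697 and 97.8% identical to that of Gm37596, and the coding sequence of Tdpoz1 was 98.5% identical to those of Gm9117 and Gm9125, which were 100% identical to each other. The gene table lists these copies apart, and a read inside the coding part cannot be told apart between identical copies, so that the split of UMIs between Tdpoz5 and Gm10697, and among Tdpoz1, Gm9117 and Gm9125, is uncertain. Sums over the copies are therefore given beside the single genes.

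The bases before the annotated starts are shown because long-read isoforms of Tdpoz1 and Gm9125 began there. RefSeq (GRCm38.p6) gave a promoter window for Tdpoz1, Tdpoz4, Tdpoz5 and Spop, and for Gm9125 under its name Tdpoz9. The windows of Tdpoz2, Tdpoz3 and Spopl were not used here. Each line below runs 5′ to 3′ over the 150 bases that end next to the RefSeq start, with capitals for matches to TATATAA (the core of a TATA box) or TAATCC (a homeodomain core) on either strand.
Tdpoz1, chr3:93676284-93676433, minus strand: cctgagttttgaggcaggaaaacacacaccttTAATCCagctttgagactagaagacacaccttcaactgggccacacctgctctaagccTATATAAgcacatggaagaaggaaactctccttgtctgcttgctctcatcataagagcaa
Tdpoz9, chr3:94054886-94055035, minus strand: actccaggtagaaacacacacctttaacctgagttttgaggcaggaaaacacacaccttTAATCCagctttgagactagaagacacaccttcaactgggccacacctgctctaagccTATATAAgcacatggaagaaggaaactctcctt
Tdpoz4, chr3:93796248-93796397, plus strand: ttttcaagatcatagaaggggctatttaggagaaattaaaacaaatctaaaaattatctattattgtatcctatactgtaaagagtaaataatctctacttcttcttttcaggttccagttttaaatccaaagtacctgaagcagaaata
Tdpoz5, chr3:93961315-93961464, minus strand: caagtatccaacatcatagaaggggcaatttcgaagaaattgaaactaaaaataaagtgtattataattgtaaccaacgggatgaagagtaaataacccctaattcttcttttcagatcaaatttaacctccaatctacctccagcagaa
Spop, chr11:95413933-95414082, plus strand: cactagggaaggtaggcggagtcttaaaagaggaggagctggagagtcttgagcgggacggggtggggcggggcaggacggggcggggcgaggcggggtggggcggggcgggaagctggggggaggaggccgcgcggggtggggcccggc
The windows of Tdpoz1 and Tdpoz9 aligned over 123 bases with no mismatch and held both motifs in the same order, 118 and 60 bases before the start in Tdpoz1 and 91 and 33 bases before it in Tdpoz9. Among the other family windows of 300 bases, Spopfm2 and the upstream start of Tdpoz8 held both motifs as well, and Tdpoz4, Tdpoz5, Tdpoz7, the downstream start of Tdpoz8 and Spop held neither. The models of Tdpoz4, Tdpoz5 and Tdpoz7 (Gm10697) span coding sequence only (1113, 1023 and 1023 bases), so that their annotated starts are start codons. Their windows may therefore not be promoters, and where their transcription starts was not tested. Across all 32851 promoter windows 3.24% held TATATAA and 7.06% held TAATCC. The windows of Tdpoz4 and Tdpoz5 were 74.0% identical to each other over the 150 bases and 48.7% and 46.0% identical to that of Tdpoz1. The 5′ end of the isoform PB.48216.35 of Tdpoz1 lay 29 bases after the first base of TATATAA, and those of the 2-exon isoforms of Gm9125 lay 28 and 29 bases after it, while the other two 2-exon isoforms of Tdpoz1 began 12 and 67 bases before it.

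The summed level of Tdpoz1 to Tdpoz5 was close to 0 in oocytes and zygotes, higher in L2C embryos, highest in 4-cell embryos and low again at the 8-cell stage. It was 0.185 ± 0.305 (SD, n = 10) copies per 100,000 UMIs in oocytes, 0.149 ± 0.226 (n = 9) in zygotes and 1.08 ± 0.867 (n = 5) in E2C embryos. In the 6 L2C embryos it was 5.56, 11.3, 16.2, 21.6, 26.2 and 16.3, and in the 5 4-cell embryos 22.0, 29.9, 39.0, 29.7 and 27.5. The value of L2C embryo 1 is a single UMI. All L2C embryos were above all E2C embryos, whose highest was 2.58, whereas the L2C and 4-cell embryos overlapped. The 8-cell embryos had 1.89, 0.398, 3.17 and 1.98 and the 16-cell embryos 1.56, 1.95, 5.98 and 5.79, all below the 4-cell embryos. The mean was 15.0 times higher in L2C than in E2C embryos and 15.9 times lower in 8-cell than in 4-cell embryos. These are means of few molecules. The 5 genes together gave 107 UMIs in the 11 L2C cells, 148 in the 17 4-cell blastomeres, 13 in the 26 8-cell and 29 in the 38 16-cell blastomeres.

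Every L2C cell (11 of 11) and every 4-cell blastomere (17 of 17) had at least 1 Tdpoz UMI. Such a UMI was present in 3 of 10 oocytes although their median depth was 195671 UMIs, against 58097 in L2C and 32466 in 4-cell cells. Of the later cells, 7 of 26 8-cell, 16 of 38 16-cell, 5 of 22 32-cell and 2 of 13 blastocyst cells had one. None of the 5 mESCs did, at a median of 22726 UMIs, which allows a level of up to 2.90 copies per 100,000 over the 103590 UMIs of these cells (3 counts, counting error only). Blastomeres of 1 embryo differed. In L2C embryo 3 the summed level was 4.74 in 1 cell and 27.6 in the other, in L2C embryo 2 it was 4.44 and 18.1, and in 4-cell embryo 3 it ranged from 13.7 to 74.9 over 3 cells. In L2C embryo 5 the cells had 24.1 and 28.2. These cells held few Tdpoz UMIs each, and whether the spread exceeds counting error was not tested.

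**Figure D1:**
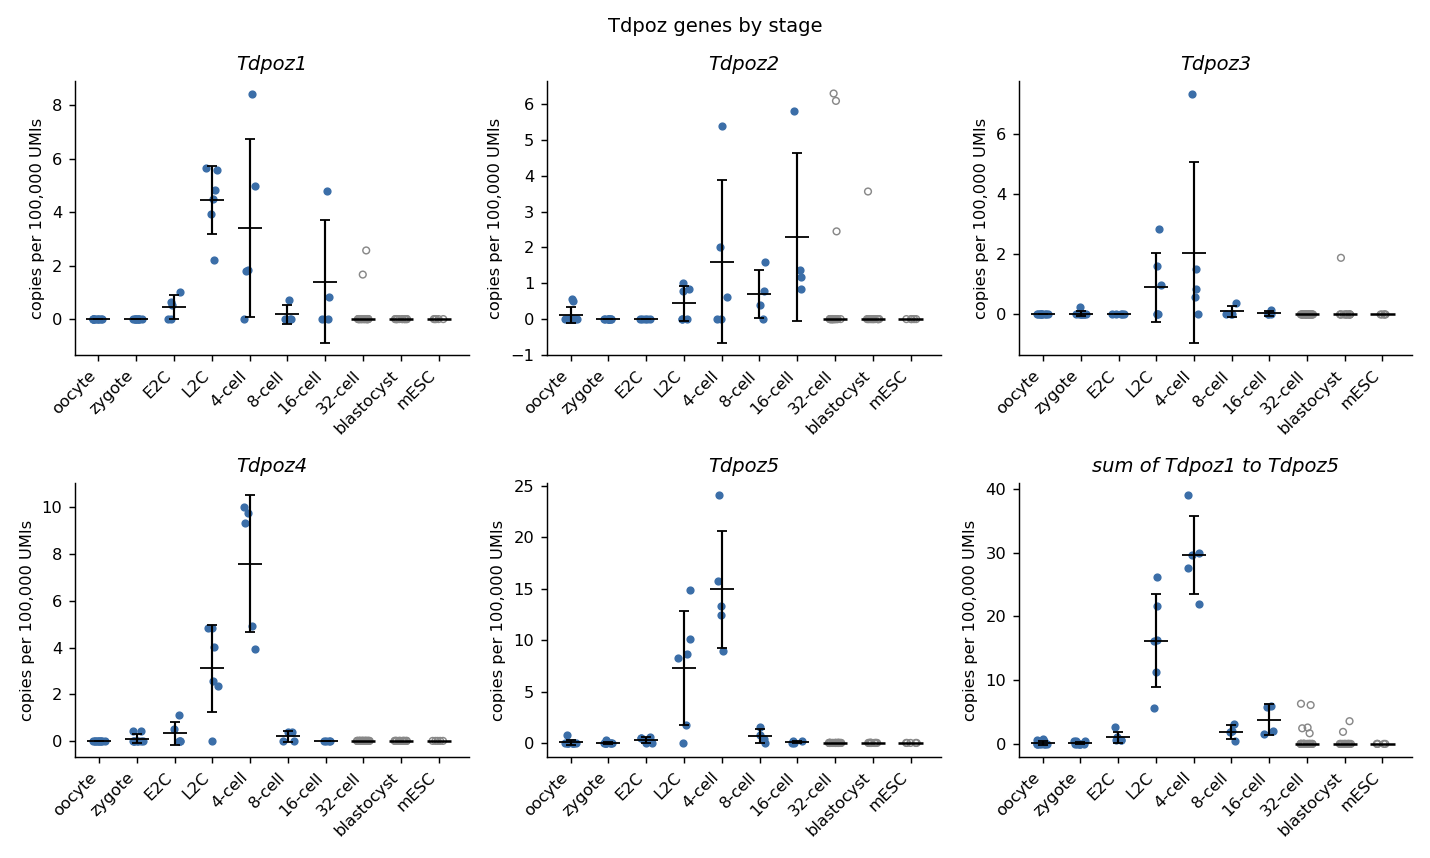
Level of Tdpoz1 to Tdpoz5 and their sum (y axis, copies per 100,000 UMIs, each panel on its own scale) by stage (x axis). Blue points are embryos with the mean and SD as bars, and grey open points are single cells with the median as a line. The sum is highest in the 5 4-cell embryos, at 22.0 to 39.0, and Tdpoz2 is the panel where 16-cell embryos reach as high as 4-cell embryos.

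Tdpoz5 was the most abundant member, with 52 of the 107 Tdpoz UMIs in L2C cells (48.6%, exact 95% interval 38.8% to 58.5%) and 73 of 148 in 4-cell blastomeres (49.3%, 41.0% to 57.7%). Its level was 0 in 2 of the 5 E2C embryos and 0.474 to 0.551 in the other 3. In L2C embryos it was 0, 1.74, 8.67, 8.28, 14.9 and 10.1, and in 4-cell embryos 13.3, 12.5, 24.1, 8.98 and 15.8. Only the L2C embryo numbered 1, with its shallow cell, reached down into the E2C range. The 8-cell embryos had 0 to 1.59 and the 16-cell embryos 0 to 0.193, and no UMI was found in 32-cell, blastocyst or mESC cells. On the log2(value + 1) scale Tdpoz5 rose from E2C to L2C by 2.50 ± 0.35 (SE; adjusted p = 1.42e-08, limma) and fell by 3.31 ± 0.38 from the 4-cell to the 8-cell stage (adjusted p = 1.87e-09). The step from L2C to 4-cell embryos was 0.97 ± 0.40 (adjusted p = 0.181) and was not called. It was called when array weights were left out (1.36, adjusted p = 0.0153), with quantile normalization (1.13) and with no filter on low values (1.11), and without the L2C embryo 5 (1.24) or the 4-cell embryo 4 (1.22).

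Tdpoz4 followed the same course at a lower level. It was listed at 0 in all 10 oocytes, where 3 counts would be 0.148 copies per 100,000, and reached 1.09 in an E2C embryo. The L2C embryos had 0, 4.02, 2.57, 4.82, 4.86 and 2.35, and the 4-cell embryos 3.92, 10.0, 4.94, 9.78 and 9.32. The lowest 4-cell embryo thus lay within the L2C range and the other 4 above it, embryo 3 by less than a UMI is worth. The 10.0 of 4-cell embryo 2 was a single UMI, in a cell of 4985 UMIs. The 4 8-cell embryos had at most 0.398, and no UMI of Tdpoz4 was found in any of the 38 16-cell blastomeres or in any later cell. It rose by 1.73 ± 0.29 from E2C to L2C (adjusted p = 7.13e-07) and fell by 2.83 ± 0.31 from the 4-cell to the 8-cell stage (adjusted p = 9.87e-10). From L2C to the 4-cell stage it passed the call limits at 1.03 ± 0.33 (adjusted p = 0.065), and this call was lost without L2C embryo 1 (0.92), 3 (0.98) or 6 (0.96), without 4-cell embryo 4 (0.82) or 5 (0.82), and in 7 of 10 other settings, among them both count models, an adjusted p under 0.05 and leaving out the 4 cells under 10000 UMIs (0.83).

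Tdpoz1 was at its highest in L2C embryos and held that level in part of the 4-cell embryos. No UMI was found in 19 oocytes and zygotes. The E2C embryos had 0.652, 0, 1.02, 0 and 0.543 and the L2C embryos 5.56, 4.49, 3.94, 4.82, 5.64 and 2.21, so that the groups did not overlap. The 4-cell embryos were spread from 0 to 8.45, and the mean was 3.42 ± 3.33 (n = 5) against 4.44 ± 1.27 (n = 6) in L2C. In 16-cell embryos it was 0, 0.816, 4.81 and 0. Tdpoz1 rose by 1.88 ± 0.33 from E2C to L2C (adjusted p = 2.43e-06), gave -0.37 ± 0.38 from L2C to the 4-cell stage (adjusted p = 0.733) and fell by 1.72 ± 0.36 to the 8-cell stage (adjusted p = 3.72e-04). DESeq2 called neither the rise nor the fall. Tdpoz1 was also called from zygote to E2C by edgeR and with a pseudocount of 0.1 (1.77).

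Tdpoz2 and Tdpoz3 were the lowest members and were not called in any comparison of the main design. Tdpoz2 was listed at 0 in all zygotes and E2C embryos. It was 0 to 1.0 in L2C embryos, and 2.00, 0, 0, 5.39 and 0.622 in 4-cell embryos. Unlike the other Tdpoz genes it was above 0 in every 16-cell embryo, at 1.37, 0.844, 1.17 and 5.79, and 16 of the 29 Tdpoz UMIs of that stage were its own (55.2%, exact 95% interval 35.7% to 73.6%, against 8.11%, 4.26% to 13.7%, in 4-cell blastomeres). These shares pool the UMIs of all cells of a stage, and the intervals leave out the spread between embryos. Whether the share differs between these stages was not tested. The step from the 8-cell to the 16-cell stage was 0.82 ± 0.31 (adjusted p = 0.225). It was called without 16-cell embryo 1 (1.11) or 2 (1.05), and without 4-cell embryo 3 the steps into and out of the 4-cell stage were called (1.05 and -1.01). Tdpoz3 gave 6 UMIs each in L2C and 4-cell cells. Its L2C embryos had 0, 0, 0.986, 2.83, 0 and 1.61, and 1 of the 4-cell embryos had 7.34 while the other 4 had at most 1.52. The difference from E2C to L2C was 0.74 ± 0.25 (adjusted p = 0.00988), under the fold limit of 1. It was called with a pseudocount of 0.1 (2.22) and by edgeR on the recovered UMIs, and the step from the 4-cell to the 8-cell stage was called without array weights (-1.07). The only isoform of Tdpoz3 had 2 UMIs in E2C (1.73 in embryo 3) and 0 in L2C, where the gene table had 0 and 6. The gene and isoform tables thus assigned reads to Tdpoz3 differently. The isoform covered 13.6% of the coding bases, and its time course cannot be set against that of the gene.

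A feature was called between adjacent stages when its log2 difference was over 1 in size and limma's unadjusted p was under 0.01, and adjusted p-values are over all features tested. The filter (a level of 1 or more in 4 or more embryos) left 11682 genes and all 7 members, which Tdpoz1, Tdpoz3, Tdpoz4 and Tdpoz5 passed mainly through the stages where they were high. From E2C to L2C, 4 of the 7 members were called (Tdpoz1, Tdpoz4 and Tdpoz5 up, Spopl down) while 48.4% of all genes were called, 25.6% up and 22.8% down. The median log2 difference of the 5 Tdpoz genes was 1.73, beside 0.03 over all genes. From L2C to the 4-cell stage 1 of 7 was called (Tdpoz4 up), beside 6.69% of all genes. From the 4-cell to the 8-cell stage 3 of 7 were called, all down (Tdpoz1, Tdpoz4 and Tdpoz5), beside 15% of all genes and 10.5% down. The median over the 5 Tdpoz genes was -1.72, beside -0.16 over all genes. No member was called by limma from oocyte to zygote (3.24% of all genes), from zygote to E2C (7.27%) or from the 8-cell to the 16-cell stage (3.36%), where 0, 1 and 1 members had an unadjusted p under 0.05. edgeR called 0, 1 (Tdpoz1, zygote to E2C) and 0 in these comparisons and DESeq2 none.

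**Figure D2:**
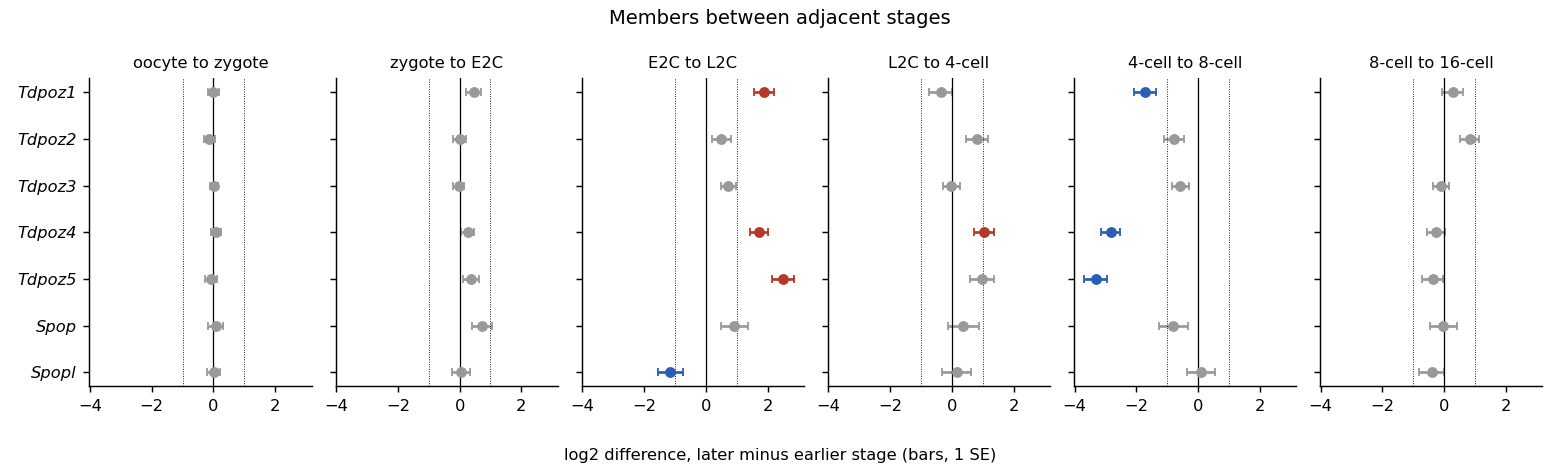
Log2 difference of each member between adjacent stages (x axis, later minus earlier stage on the log2(value + 1) scale, bars 1 SE), with 1 panel for each comparison and dotted lines at the fold limit. Red points were called higher and blue points lower in the later stage. Tdpoz1, Tdpoz4 and Tdpoz5 rise from E2C to L2C, by 1.73 to 2.50, and fall from the 4-cell to the 8-cell stage, by 1.72 to 3.31.

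The 6 other family genes of the cluster shared the window of the Tdpoz genes. From E2C to L2C 4 of the 6 rose, beside 25.6% of all genes. From L2C to the 4-cell stage 2 rose and 1 fell, beside 6.69% called in either direction. From the 4-cell to the 8-cell stage all 6 fell, beside 10.5% of all genes. Gm9117 and Gm9125 passed the filter only through L2C and 4-cell embryos, and the others in part. A fall after the 4-cell stage was therefore partly built in, and copies that can exchange reads are counted here as separate genes. Gm10697 was the most abundant gene of the cluster. It was listed at 0 in every E2C embryo, averaged 9.36 ± 6.95 (n = 6) in L2C and 21.2 ± 9.23 (n = 5) in 4-cell embryos, and was 2.21 at the 8-cell stage. Gm37596 came later than the others, with 1.03 ± 0.909 in L2C and 11.4 ± 8.83 in 4-cell embryos, a log2 difference of 2.78 ± 0.44 (adjusted p = 1.97e-04). Gm9117 came earlier, with 7.08 ± 4.18 in L2C and 2.42 ± 1.25 in 4-cell embryos, a difference of -1.11 ± 0.34 (adjusted p = 0.0551). Gm9125, identical to Gm9117 in coding sequence, averaged 4.40 ± 2.72 in L2C and 8.71 ± 9.54 in 4-cell embryos, a difference of 0.62 ± 0.39 (adjusted p = 0.453). Its 4-cell mean leaned on embryo 2 at 25.0, beside a median of 4.91. Over the pooled UMIs of each stage the levels were 4.00 and 5.72. The difference between these copies was not tested. Summed over copies the window was the same. Tdpoz5 with Gm10697 gave 0.31 ± 0.285 in E2C, 16.6 ± 12 in L2C, 36.1 ± 8.93 in 4-cell and 2.90 ± 1.4 in 8-cell embryos. Tdpoz1 with Gm9117 and Gm9125 gave 0.646 ± 0.834, 15.9 ± 6.01, 14.5 ± 7.45 and 0.549 ± 0.632 in these stages. All 11 family genes summed to 2.82 ± 1.77 in E2C, 44.6 ± 15.7 in L2C, 79.6 ± 12.6 in 4-cell and 6.10 ± 2.15 in 8-cell embryos. The 2 genes of another family at the edge of the window, S100a10 and S100a11, which encode calcium-binding proteins, were at 0 in L2C embryos, and S100a11 rose from the 8-cell to the 16-cell stage by 1.5 ± 0.42 (adjusted p = 0.0452).

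**Figure D3:**
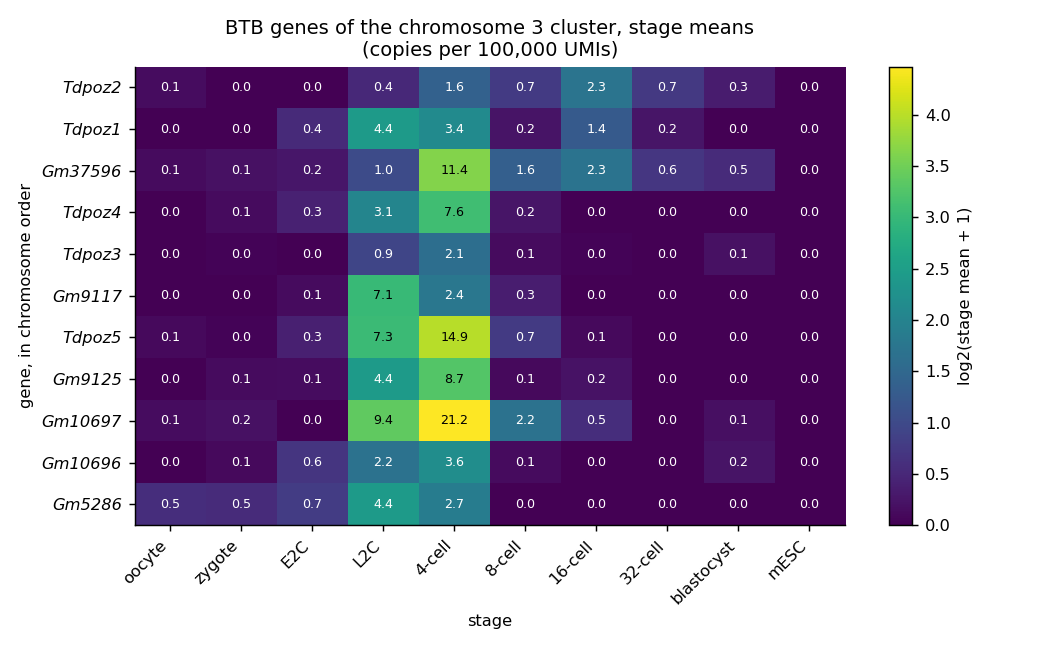
Stage means of the 11 MATH and BTB genes of the chromosome 3 cluster (rows, in chromosome order) over the 10 stages (columns), coloured by log2(mean + 1) with the mean in copies per 100,000 UMIs printed in each cell. Means are over embryos up to the 16-cell stage and over cells after it. The L2C and 4-cell columns hold the high values, up to 21.2 for Gm10697, and at the 16-cell stage Tdpoz2 (2.29) and Gm37596 (2.26) are the highest.

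Spop was found at every stage and Spopl mainly in the oocyte, the zygote and the E2C embryo. Spop averaged 0.947 ± 0.648 (n = 10) in oocytes, 1.04 ± 0.894 (n = 9) in zygotes and 2.14 ± 0.873 (n = 5) in E2C embryos. In L2C embryos it was 5.56, 5.02, 5.33, 4.82, 4.07 and 5.57, all above the highest E2C embryo at 3.51, the first of them from a single UMI. The difference was 0.92 ± 0.43 (adjusted p = 0.062) and was not called. The 4-cell embryos had 2.62, 12.5, 8.09, 9.72 and 6.10, the 8-cell embryos 4.46, 2.52, 0 and 6.09, and the 16-cell embryos 3.99, 2.33, 3.35 and 2.79. Without array weights the step from the 4-cell to the 8-cell stage was called (-1.24, adjusted p = 0.0334), where the fit with weights gave -0.80 ± 0.47 (adjusted p = 0.271). Over single cells the median was 6.20 (range 0 to 16.4) at the 32-cell stage, 5.92 (0 to 9.31) in blastocysts and 0 (0 to 4.30) in mESCs, where 1 UMI was found.

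Spopl averaged 1.82 ± 1.06 in oocytes, 1.84 ± 0.743 in zygotes and 1.92 ± 0.837 in E2C embryos, means that differed by less than their SDs. The E2C embryos had 2.19, 0.71, 2.58, 1.45 and 2.70, while 4 of the 6 L2C embryos were listed at 0 and the others had 1.0 and 0.828. Spopl fell from E2C to L2C by 1.14 ± 0.41 (adjusted p = 0.0142). The call was lost with quantile normalization (-0.997), with no filter on low values (-1.15) and in 6 fits that left out 1 E2C or L2C embryo (E2C 1, 3 or 5 and L2C 3, 5 or 6, down to -1.06), and it was kept in both count models. In 8-cell embryos it was 0.746, 0, 2.81 and 0.365, of which 1 was above every E2C embryo, and no UMI was found in the 22 32-cell cells. The 2.81 of 8-cell embryo 3 was a single UMI, in 1 of its 3 cells. Across the 10 stage means Spop and Spopl ran opposite to each other (Pearson's r of log2 values -0.79), and the closest pair of all members was Tdpoz4 and Tdpoz5 (0.99). Over the 43 embryos the r of these pairs was -0.59 and 0.92. The stage means mix means over embryos and over cells, and Spopl had only 2 UMIs in L2C and 1 in 16-cell cells.

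**Figure D4:**
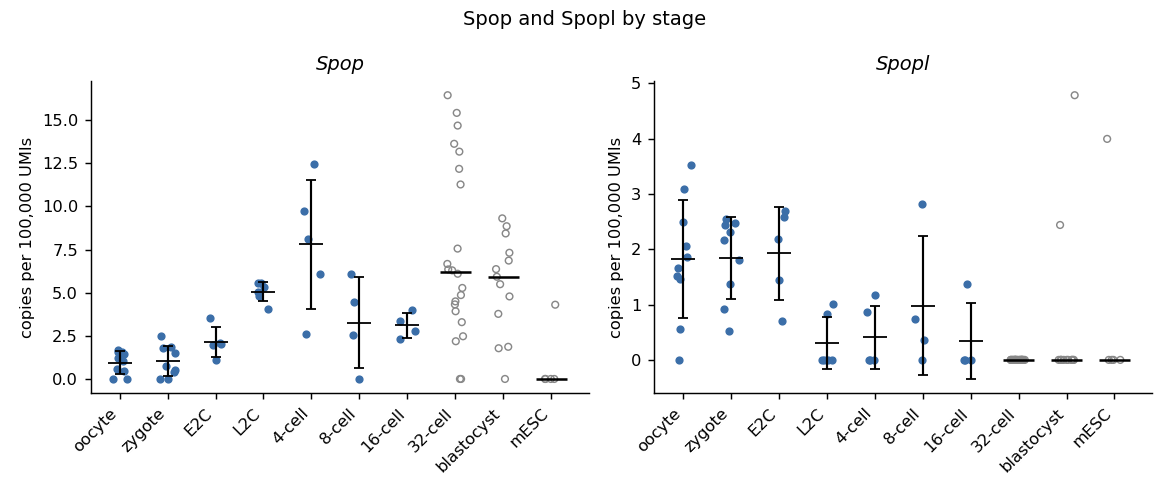
Level of Spop and Spopl (y axis, copies per 100,000 UMIs) by stage (x axis), drawn as for the Tdpoz genes, with embryos as blue points, mean and SD as bars, and single cells as grey open points with the median as a line. Spop is above 4 in all 6 L2C embryos, and 4 of these are at 0 for Spopl.

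The isoform table held 44 UMIs of Tdpoz1 in 5 isoforms, 16 of Tdpoz2 in 2, 5 of Tdpoz3 in 1, 29 of Tdpoz5 in 1, 67 of Spop in 5 and 58 of Spopl in 3, fewer than the 61, 43, 16, 137, 281 and 116 UMIs of the gene table. The 67 gene UMIs of Tdpoz4 had no isoform. Of the 5 Tdpoz1 isoforms, PB.48216.38 (9 UMIs, 2 exons, 2372 bases) and PB.48216.39 (8 UMIs, 2 exons, 2391 bases) joined a first exon ending at 93676195 to the exon with the coding sequence and covered 100% of its bases. PB.48216.37 and PB.48216.44 were single exons with 39.5% and 91.0% of the coding bases. PB.48216.35 (10 UMIs, 225 bases) joined the same first exon to an exon that ended 9104 bases beyond the annotated 3′ end and held none of the coding sequence. The single isoform of Tdpoz5, PB.48217.1, had 1 exon of 1556 bases, began 186 bases inside the annotated gene and ended 719 bases past its annotated end. A 3′ extension of the same 719 bases was found in PB.48226.2 of the identical copy Gm10697, which began 34 bases before the annotated start and had 44 UMIs. The annotated models of both genes hold coding sequence only. The isoforms of Tdpoz2 ended 296 and 473 bases and that of Tdpoz3 684 bases past the annotated end.

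**Figure D5:**
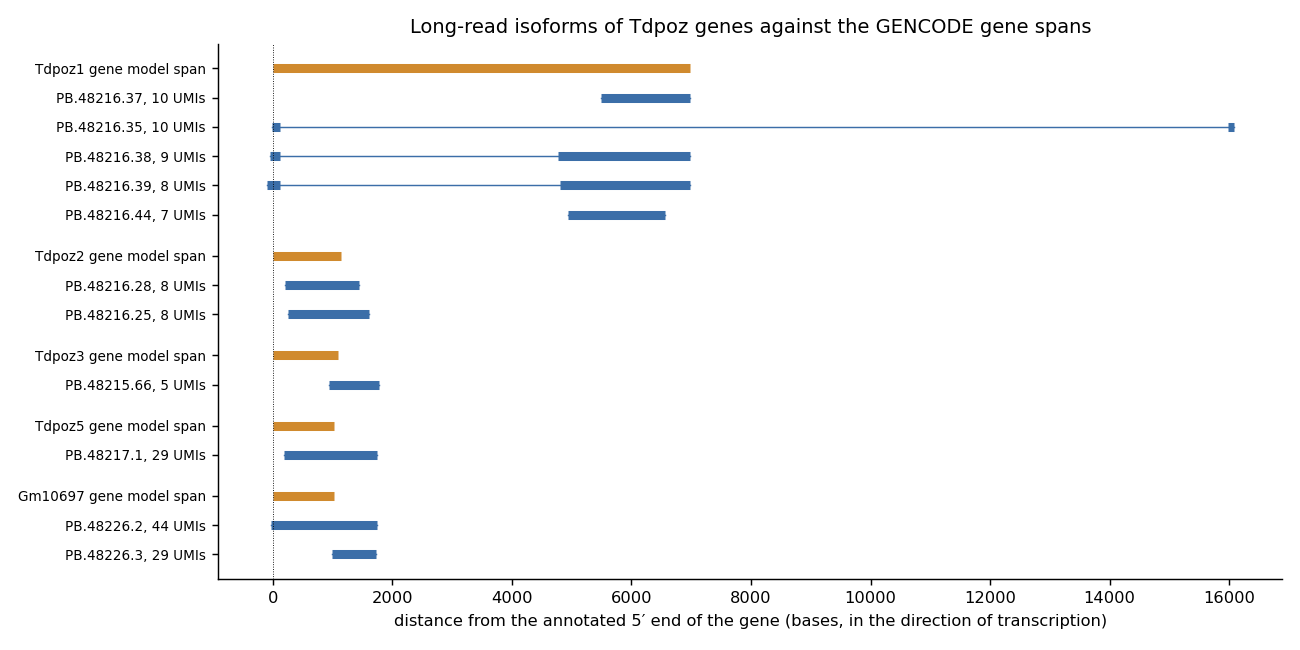
Exons (thick blue) and introns (thin lines) of the isoforms of Tdpoz1, Tdpoz2, Tdpoz3, Tdpoz5 and Gm10697 below the span of each annotated gene (orange), by distance from the annotated 5′ end in bases in the direction of transcription, with the UMIs over all cells beside each name. The isoform of Tdpoz5 and the longer isoform of Gm10697 end at the same distance, 719 bases beyond the annotated 3′ end.

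The isoforms of Spop and Spopl differed in completeness. PB.13430.7 and PB.13430.6 of Spop (36 and 13 UMIs) had 10 exons and ended at 95493023 and 95493406 on chromosome 11, and both covered 100% of the coding bases. With PB.13430.8 and PB.13430.19 (5 UMIs each) 4 of the 5 isoforms did so. PB.13430.19, which ended 1277 bases before the annotated end, was the only Spop isoform with UMIs in zygotes and E2C embryos (2 and 3), and it had none later. By contrast all 3 Spopl isoforms, with nearly all of their 58 UMIs in oocytes, zygotes and E2C embryos, were 2-exon transcripts that began 57874 to 57924 bases inside the gene and held 11.2% of the annotated coding bases.

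Of the member isoforms, 4 passed the filter, and 29409 isoforms were tested in all. PB.48216.38 of Tdpoz1 was at 0 in all E2C embryos and was 0, 2.30, 1.24, 2.65, 2.00 and 0 in L2C embryos, a rise of 1.13 ± 0.25 (adjusted p = 3.35e-04), beside 26% of isoforms called in that comparison. PB.13430.7 of Spop was 0, 0, 1.24, 0, 0.923 and 0 in L2C and 1.19, 0, 2.14, 4.11 and 1.51 in 4-cell embryos, a rise of 1.16 ± 0.32 (adjusted p = 0.0301), beside 4.29% of isoforms. PB.48217.1 of Tdpoz5 was 9.13, 19.4, 0, 1.36 and 2.78 in 4-cell embryos and at most 0.485 in 8-cell embryos, a fall of 1.61 ± 0.39 (adjusted p = 0.00404), beside 7.93% of isoforms. The 19.4 was that of 4-cell embryo 2. Each of its 2 cells had 1 Tdpoz5 UMI in the gene table, and 1 cell held only 4985 UMIs. Its gene level was 12.5, so that isoform and gene values are not on the same scale. DESeq2 called none of these and gave no p under 0.05 to a member isoform, and edgeR called the first and the last. The first was lost without L2C embryo 4 (0.997), and the second without 4-cell embryo 4 (0.77) and without array weights (0.94). Limma called no member isoform from oocyte to zygote (1.48% of isoforms), from zygote to E2C (5.18%) or from the 8-cell to the 16-cell stage (1.97%), where 0, 0 and 1 had an unadjusted p under 0.05, and edgeR and DESeq2 called none there.

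Most calls among the genes around SPOP in the ligase were from E2C to L2C, where 48.4% of all genes were called. Of the CUL3 core and the neddylation enzymes that switch it on, 15 of 16 genes were tested, and 3 rose and 6 fell. Rnf7 rose from 7.03 to 82.6 copies per 100,000. It is a RING protein of the list other than RBX1, the RING protein of the CUL3 ligase named above. Nae1, a subunit of the enzyme that activates NEDD8, fell from 48.4 to 4.58. Of the COP9 signalosome, which removes NEDD8 from cullins, all 10 subunits were tested, and 6 rose and 3 fell, with a median log2 difference of 1.27. Cops6 rose from 2.36 to 28.7 and Cops8 fell from 38.5 to 11.5. Of 38 other BTB adaptors of CUL3 31 were tested, and 7 rose and 10 fell. Kbtbd7 fell from 61.9 to 4.88, and Klhl21 rose from 0.464 to 13.4. Of 10 other genes with a MATH domain 6 were tested, and Traf2 and Mep1b, a signalling adaptor and a metalloprotease subunit, rose by 2.23 ± 0.38 and 1.45 ± 0.44. Of 15 proteins described as SPOP substrates 2 rose, the bromodomain gene Brd3 from 1.92 to 6.19 and Myc from 0 to 2.16.

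From the 4-cell to the 8-cell stage, when Tdpoz1, Tdpoz4 and Tdpoz5 fell, 15% of all genes were called. Cul3 itself fell from 20.2 to 5.52, a log2 difference of -1.86 ± 0.45 (adjusted p = 0.00199), and Ube2m, which carries NEDD8 to cullins, rose by 1.30 ± 0.41 (adjusted p = 0.021), as the only calls among 15 core genes. Of the 31 adaptors 4 fell, among them Klhl21 from 16.0 to 2.46 and Klhl12 from 7.36 to 2.10. The deubiquitinase Usp7 fell from 22.3 to 6.41 among the MATH-domain genes. Among the substrates Brd3 fell from 9.33 to 2.59, and 2 rose, among them Trim24 by 1.80 ± 0.54 (adjusted p = 0.0152).

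From zygote to E2C, where 7.27% of all genes were called, the calls in the lists included Cops7a (1.21 ± 0.26), the adaptors Kctd10 (1.03 ± 0.28) and Klhl18 (-1.56 ± 0.32), and the substrate Trim24 (1.41 ± 0.37). From L2C to the 4-cell stage, beside 6.69% of all genes, Dcun1d1 fell in the core list (-1.16 ± 0.39), 4 adaptors fell, among them Kbtbd2 (-1.41 ± 0.35) and Klhl8 (-1.30 ± 0.39), and the substrate Cdca5 fell (-1.36 ± 0.45). From the 8-cell to the 16-cell stage, beside 3.36% of all genes, Dcun1d1 (1.28 ± 0.35), Cops3 (1.18 ± 0.37) and Nanog (1.60 ± 0.30) rose and Myc fell (-1.92 ± 0.35).

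The genes whose stage means were most like the summed Tdpoz level, by Pearson's r of log2(value + 1) over the 10 stages among 11675 other genes, were Sp140 (0.99), Slc16a6 (0.98), Cbll1 (0.98), Gm45052 (0.98) and Prr11 (0.98). Sp140 averaged 7.36 in L2C and 12.3 in 4-cell embryos and at most 1.96 in any other stage, and Slc16a6, a monocarboxylate transporter, 15.6 and 22.3. Over the 43 embryos the r of these genes was 0.91, 0.97, 0.57, 0.82 and 0.90. The stage means share cells, depth and base composition, and 10 points leave many genes near the top. Of the other family genes of the cluster, Gm10697 ranked 87, Gm9125 120, Gm10696 342, Gm9117 597, Gm37596 613 and Gm5286 1013 by the same measure.

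In a separate run oocytes were kept whole or cut into 2 or 4 parts before amplification. Spopl was the only member found in most of these libraries, with 11 UMIs over the 4 columns taken as whole oocytes, 18 over the 6 pieces of oocytes cut in 2 and 11 over the 6 pieces of oocytes cut in 4, or 1.27 ± 0.771, 1.65 ± 0.616 and 0.876 ± 0.682 copies per 100,000 UMIs. The 3 kinds overlapped in range. Spop had 1, 5 and 5 UMIs. Tdpoz1 and Tdpoz5 each had a single UMI, in a piece of an oocyte cut in 4, and the table held no isoform of Tdpoz2, Tdpoz3 or Tdpoz4.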

How the data were processed

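The 7 members and the gene lists were chosen with earlier results of these data known. Per the methods, consensus reads came from SMRT-Link, and scISA-Tools read the barcodes and UMIs. The authors aligned to mm10 by minimap2, named genes by gffcompare, merged reads into isoforms by cDNA_Cupcake and SQANTI3, and kept an isoform found in 5 or more cells. The authors deposited gene and isoform values in copies per 100,000 UMIs of a cell, a CPM divided by 10. Columns listed as a score hold this unit too, as the authors deposited them. Batch 4 was deposited as whole UMI counts of 49271 isoforms, and the transcript positions (other) were deposited in mm10. Secondary alignments were not kept by the authors, so that a read of identical copies is placed once.

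Values above 0 were whole UMIs in 100% of cases (tolerance 0.1), and these UMIs gave depths and the count models. Embryos are those in the column names, and nothing ties them to litters. Cell values were averaged per embryo and compared between adjacent stages in 1 fit with limma 3.58.1 (trend, array weights) on log2(value + 1), after a filter of at least 1 copy in at least 4 embryos, with Benjamini-Hochberg adjustment over all features. A fold on this scale understates the change of low genes. DESeq2 1.42.0 and edgeR 4.0.16 (R 4.3.3) served as alternatives. Python 3.11.15, numpy 2.4.6, scipy 1.17.1, pandas 2.3.3, Biopython 1.88 and matplotlib 3.10.9 gave the rest. The steps were also run on simulated counts with known changes. These counts started from a gene's mean over all embryos, so that rises from near 0, as in the Tdpoz genes, were not covered. Genes were named by rule: all members, the called list genes with the largest and smallest difference in each comparison, the 5 genes most like the summed Tdpoz level, and the genes within 250 kb of the Tdpoz genes. Intervals are exact binomial (95%) over the pooled UMIs of a stage. They cover counting error only, not the spread between embryos.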

Additional observations from a re-analysis of the deposited data

Results flagged for a closer look

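Of 48 groups of 4 to 10 embryos with a range above 0, 11 held an embryo farther from the rest than Dixon's 95% limit allows. That limit is made for normally distributed values, where about 1 in 20 groups (2.4) would pass it. Here a lone embryo above 0 in a group otherwise at 0 always passes it. The summed level also repeats its members, so that 11 cannot be read as an excess. Most rest on 1 or 2 UMIs in a group otherwise at 0. These were Tdpoz1 in 8-cell embryo 1 (0.718 copies per 100,000 UMIs), Tdpoz3 in zygote 7 (0.257), 8-cell embryo 4 (0.395) and 16-cell embryo 2 (0.147), Tdpoz5 in oocyte 1 (0.782) and zygote 7 (0.257), and Spopl in 16-cell embryo 3 (1.38). The others stood above embryos with UMIs of their own. Tdpoz1 was 4.81 in 16-cell embryo 3 against at most 0.816 in the other 3, and Tdpoz2 was 5.79 in 16-cell embryo 4 against at most 1.37. Tdpoz3 was 7.34 in 4-cell embryo 2 against at most 1.52, and the summed Tdpoz level was 2.58 in E2C embryo 3 against at most 1.05. The split oocytes, outside the comparisons between stages, held 40 UMIs of Spopl in 16 libraries.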

How the results depend on the processing

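Over the 6 comparisons limma made 8 calls of members, and the alternatives gave between 3 and 11, the highest without array weights. It made 3 with a pseudocount of 5, which shrinks low genes under the fold limit, and 5 with DESeq2. Leaving out 1 embryo at a time gave 6 to 10. The 3 calls of member isoforms became 0 with a pseudocount of 5 and 0 with DESeq2, and 2 to 4 without 1 embryo. The 64 calls in the CUL3 lists became 24 with a pseudocount of 5, and 57 to 68 without 1 embryo. With the sequencing run as a covariate no member was called from oocyte to zygote, as without it. The run was matched to oocytes and zygotes only. It could therefore not be a covariate in the comparisons where limma called members. Whether run and stage coincide there was not tested. Of 374 refits of the 11 calls of member genes and isoforms, 338 kept the call, 36 lost it and 0 changed sign. The falls of Tdpoz4 and Tdpoz5 to the 8-cell stage and the rise of Tdpoz5 to L2C kept it in all 10 alternatives and 24 fits without 1 embryo. The leave-one-out fits of L2C embryos, and the fit without the 4 cells under 10000 UMIs, were chosen after seeing the data. The median over cells of the summed Tdpoz level was 0 at the 8-cell and 0 at the 16-cell stage. Of the 5 genes most like that level, 0 were in the first 5 by Spearman's rho over stages and 1 by Pearson's r over 43 embryos. The cause of these differences was not tested. No paired analysis was possible because each embryo was taken at a single stage, so that embryo numbers do not pair the stages. Depth limits all members, since 1 UMI was worth 3.08 copies in a median 4-cell blastomere.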
